A study of Mus musculus with 18 samples.

Results

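The 35 genes described here encode the proteins of the basement membrane, the thin sheet of matrix beneath epithelium and around vessels, muscle and nerve, together with the receptors that bind it. They were chosen as a list of gene symbols and not by a rule on measured values, though earlier results of these data were known. All 35 were found among the 55469 gene IDs of the tables. By role they comprised the 6 chains of collagen IV, 5 laminin alpha chains, 5 laminin beta and gamma chains, 6 linkers and proteoglycans, 2 anchoring collagens, 4 genes of the Fraser complex with nephronectin, 2 SMOC genes and 5 receptor genes. Total RNA of prostate tissue (ventral plus lateral lobes) was sequenced from 18 males of the strain given as C56NL/6N, 3 in each of 6 groups. Every mouse carried 1 copy of TRAMP, a transgene in which the probasin promoter drives SV40 T antigen in prostate epithelium, so the controls develop prostate tumours too. The groups were WT-TRAMP (ELAC2+/+), KO-TRAMP (homozygous knockout made with Pb-Cre, which is active in prostate epithelium) and A537T-TRAMP (homozygous for the ELAC2 point mutation in all cells), each at 10 and at 30 weeks of age. Stromal and vascular cells of KO-TRAMP mice therefore keep Elac2, which encodes the nuclease that trims the 3′ ends of precursor tRNAs.

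Values are the authors' normalized read counts. Each mutant line shares a table of 6 libraries with WT-TRAMP of its age, and lines were compared with WT-TRAMP only within a table, because the tables differ in scale and in reads per gene. For a WT-TRAMP library, a member's recovered reads in the A537T-TRAMP table were 0.819 to 1.05 times those in the KO-TRAMP table at 10 weeks and 0.865 to 1.53 times at 30 weeks. The lowest ratio at each age was that of Frem1 and the highest at 30 weeks that of Col7a1, and 34 and 31 of the 35 members stayed within 10%. The headers number the libraries 1 to 18 and give no mouse number. WT-TRAMP comprises libraries 1 to 3 at the younger age and 10 to 12 at the older. For A537T-TRAMP these are libraries 4 to 6 and 13 to 15. For KO-TRAMP they are libraries 7 to 9 and 16 to 18. They held between 9380174 and 14830104 recovered reads. Elac2 itself was at 273 ± 25.0 in KO-TRAMP and 318 ± 36.6 in WT-TRAMP at 10 weeks (SD, n = 3), and at 256 ± 10.2 and 293 ± 37.3 at 30 weeks. Neither difference passed the test (limma, adjusted p = 0.808 and 0.522), and the KO-TRAMP allele lacks only exon 8, so gene-level counts cannot check it. Luminal epithelial genes, the labelled tissue's own, summed to between 17383 and 30477 in every library. The 7 seminal vesicle genes took more than 1% of the reads of libraries 5, 6, 9, 10, 12, 13 and 15, up to 9.84% in library 5. Among the KO-TRAMP mice at 30 weeks, library 16 differed from libraries 17 and 18. Its neuroendocrine genes summed to 4.12 against 14558 and 9112, and its smooth muscle genes to 7441 against 36486 and 25204. In WT-TRAMP of that table these sums were 3.84 to 1135 and 14776 to 25068. Library 16 thus lay within the WT-TRAMP range for neuroendocrine genes and below it for smooth muscle genes. Libraries 17 and 18 lay above both ranges.

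A basement membrane is built from networks that assemble themselves. Laminins, each a trimer of an alpha, a beta and a gamma chain, polymerise at the cell surface, where integrins and dystroglycan hold them. Collagen IV forms the covalent network that gives the sheet its strength, and nidogens and perlecan (Hspg2) link the networks. In prostate, basal and luminal cells stand on such a sheet and smooth muscle cells around the glands are wrapped in their own, so bulk RNA mixes the genes of several cell types. In bulk samples, fewer cells of a type and less RNA per cell cannot be told apart.

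The collagen IV genes lie in 3 pairs that are transcribed away from each other. Col4a1 (ENSMUSG00000031502.11) and Col4a2 (ENSMUSG00000031503.13), whose chains form the trimer found in nearly every basement membrane, lie on chromosome 8 of GRCm38 at 11198423 to 11312826 on the minus strand and 11312805 to 11449287 on the plus strand. Their annotated first exons overlap by 22 bases, so no gap lies between the 2 genes and each start site lies within the other gene. Col4a4 and Col4a3 on chromosome 1 are separated by 71 bases, and Col4a6 and Col4a5 on the X chromosome by 1308. The stretch between the start sites of Col4a4 and Col4a3 is shown because it is the whole interval the pair shares. The 250 bases before the start sites of Col15a1, the member with the highest fold change in KO-TRAMP at 30 weeks, and of Npnt, which lay on opposite sides of WT-TRAMP at the 2 ages, are shown beside it. All are RefSeq sequence of GRCm38.p6, read 5′ to 3′ on the strand of the named gene (the plus strand for the pair), and hold no annotated exon. Capitals mark matches, on either strand, to any of 4 motifs searched. These were the TATA box, searched as TATAAA, the CCAAT box by those letters, the GC box recognised by Sp1, searched as GGGCGG, and the AP-1 element, searched as TGACTCA, none of which overlapped another in these sequences.
Col4a4 and Col4a3 interval, chr1:82586850-82586920: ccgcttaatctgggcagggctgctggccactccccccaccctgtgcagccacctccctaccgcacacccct
Col15a1, chr4:47207762-47208011, plus strand: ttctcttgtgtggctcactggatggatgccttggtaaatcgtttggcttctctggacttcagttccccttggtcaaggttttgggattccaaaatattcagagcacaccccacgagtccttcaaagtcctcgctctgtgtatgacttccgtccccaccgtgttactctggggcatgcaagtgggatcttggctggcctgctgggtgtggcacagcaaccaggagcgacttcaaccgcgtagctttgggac
Npnt, chr3:132950292-132950541, minus strand: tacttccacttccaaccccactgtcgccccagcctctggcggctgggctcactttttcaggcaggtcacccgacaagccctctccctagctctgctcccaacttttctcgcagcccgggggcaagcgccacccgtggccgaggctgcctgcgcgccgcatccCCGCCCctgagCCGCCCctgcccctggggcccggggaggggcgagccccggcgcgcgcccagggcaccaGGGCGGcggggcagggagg
The Npnt window shown held 3 matches to GGGCGG and 74% G and C, whereas the Col15a1 window held no match and 53.6% G and C. Another RefSeq window of Npnt, before the start site at 132949814, overlapped an Npnt exon and is not shown. It held 0 matches to GGGCGG and 69.6% G and C. Of 32851 RefSeq windows of 250 bases, 32.7% held GGGCGG, 33.8% CCAAT, 12.4% TATAAA and 4.46% TGACTCA. Over 71 bases these shares were 20.7%, 13.3%, 4.41% and 1.32%. A match is a match of letters only. RefSeq windows were matched for 23 of the 35 members.

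Divided by exon length, levels in WT-TRAMP spanned a wide range (all in the KO-TRAMP tables, mean ± SD of normalized count per kilobase, n = 3). The highest level at 10 weeks was that of Itgb1, the beta chain shared by most laminin and collagen receptors, at 439 ± 34.2. Lamb2 followed at 286 ± 51.9 and Dag1, which encodes dystroglycan, at 268 ± 9.84, and the 2 ranges overlapped. Lama5 (148 ± 18.8), Col4a1 (135 ± 14.7), Agrn (131 ± 17.96), Itgb4 (127 ± 11.1), Itga6 (119 ± 7.41), Lamc1 (117 ± 15.5) and Itga3 (109.5 ± 26.8) formed the next group, and each overlapped its neighbours. Among the chains of each class, Lama5, Lamb2 and Lamc1 were thus highest, the chains of laminin-521. Col4a1 stood at 135 ± 14.7 against 51.0 ± 7.43 for Col4a2, 33.0 ± 3.37 for Col4a5, 16.1 ± 5.70 for Col4a6, 15.8 ± 4.86 for Col4a4 and 10.6 ± 2.51 for Col4a3. The lowest levels were those of Nid2 (6.37 ± 1.63), Frem1 (3.84 ± 1.59) and Lama1 (3.73 ± 3.38). At 30 weeks Itgb1 (627 ± 18.2) and Lamb2 (334 ± 31.0) were again the first 2, and Nid2 (6.05 ± 2.20) was last. Npnt stood at 83.5 ± 13.2 at 30 weeks and 13.6 ± 3.36 at 10 weeks, and Smoc2 at 95.0 ± 9.62 and 22.5 ± 7.41. The tables of the 2 ages were normalized separately, so these levels are given side by side without a test.

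Against this background, 1 member passed the adjusted threshold in 1 of the 4 comparisons, Col4a2 in KO-TRAMP at 30 weeks. All 35 members had a mean of at least 10 in each table and were tested. The plot of fold changes shows that KO-TRAMP at 30 weeks had members on both sides of WT-TRAMP, whereas nearly all members of A537T-TRAMP at 10 weeks had a positive fold change. For KO-TRAMP, 22 members had a positive and 13 a negative log2 fold change at 10 weeks, and 17 and 18 did at 30 weeks. For A537T-TRAMP these counts were 32 and 3, then 23 and 12. Of all genes tested, 48.9% and 50.9% had a positive fold change for KO-TRAMP at 10 and 30 weeks, and 49.1% and 50.0% for A537T-TRAMP. Lines of 1 age share their 3 WT-TRAMP libraries, so these counts are not independent of each other.

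**Figure D1:**
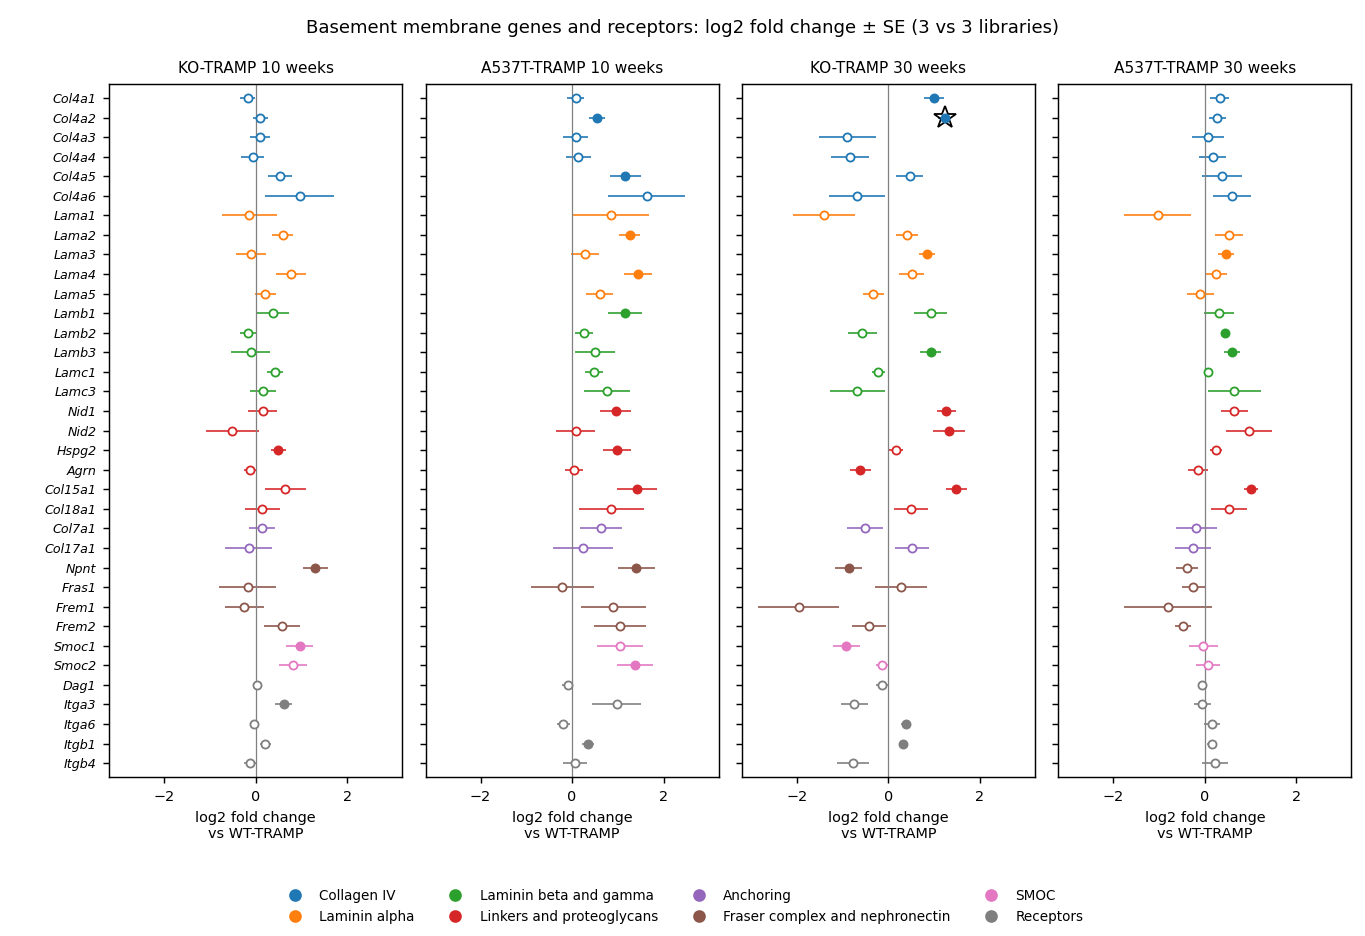
Log2 fold change against WT-TRAMP of the same age (x axis, points) with its standard error (bars) for each of the 35 members (rows, coloured by role), 3 libraries against 3. Filled points mark members whose groups do not overlap and the star marks Col4a2 in KO-TRAMP at 30 weeks, at 1.23, the single member with a limma adjusted p under 0.05.

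In KO-TRAMP at 30 weeks Col4a2 rose 2.33-fold, and Col4a1, Nid1, Nid2 and Col15a1 were between 2.02 and 2.88 times their WT-TRAMP means, each with every KO-TRAMP library above every WT-TRAMP library, though none of these 4 passed the adjusted test. Agrn, Npnt and Smoc1 had every KO-TRAMP library below WT-TRAMP. Of the 35 members, 1 was called higher and 0 lower by limma, beside 0.189% and 0.0237% of the 16900 genes tested. Groups did not overlap in 9 members on the higher side, 25.7% of them, beside 10.8% of all genes, and in 3 on the lower side, 8.57% beside 9.48%. The median log2 fold change of the members was -0.13 and that of all genes 0.01.

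Col4a2 was at 495, 376 and 479.9 in WT-TRAMP libraries 10, 11 and 12, and at 1026, 1057 and 1062 in KO-TRAMP libraries 16, 17 and 18. The KO-TRAMP values lay close together and far above the highest WT-TRAMP value. The log2 fold change was 1.23 (standard error 0.13, limma, adjusted p = 0.0432). DESeq2 on the recovered reads also passed it (adjusted p = 9.461e-12), whereas edgeR did not (adjusted p = 0.0543).
Leaving out any 1 of libraries 10, 11, 12, 17 and 18 took the limma adjusted p to between 0.102 and 0.349 with the fold change at 1.10 to 1.30, and leaving out library 16 took it to 0.0113. Without libraries 10 and 12, whose reads were more than 1% seminal vesicle, 1 WT-TRAMP library remained and the fold change was 1.48 with an adjusted p of 0.777.

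Col4a1, its partner, was at 1155, 927 and 1218 in WT-TRAMP and at 1629, 2788 and 2265 in KO-TRAMP. The groups did not overlap, but the KO-TRAMP libraries spread more widely than for Col4a2, and the log2 fold change of 0.99 (standard error 0.22) had a limma adjusted p of 0.244. Col4a3 and Col4a4, the chains of the kidney glomerulus and a few other membranes, had log2 fold changes of -0.90 and -0.84, Col4a5 0.46 and Col4a6 -0.69, with limma adjusted p between 0.406 and 0.579 and overlapping groups.

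Nid1, the more abundant nidogen, was at 370.4, 241 and 295 in WT-TRAMP and at 852, 644 and 670.5 in KO-TRAMP. Its lowest KO-TRAMP value was well above the highest WT-TRAMP value, and the log2 fold change was 1.27 (standard error 0.20, limma, adjusted p = 0.106). Col15a1, a collagen gene of vascular and muscle basement membranes, was at 206, 179 and 211 in WT-TRAMP and at 604, 402 and 709 in KO-TRAMP. That is a log2 fold change of 1.48 (standard error 0.23, limma, adjusted p = 0.0997), the highest of the members here. Nid2, at 18 to 101 reads per library, had a log2 fold change of 1.32 (standard error 0.35, limma, adjusted p = 0.308), also without overlap. The other proteoglycans differed less, with perlecan (Hspg2) at 0.16 and Col18a1 at 0.50 and both groups overlapping.

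Agrn, which encodes the heparan sulfate proteoglycan agrin, was on the other side. It was at 1408, 1255 and 1442 in WT-TRAMP and at 1251, 712 and 799 in KO-TRAMP. Library 16 lay just under the lowest WT-TRAMP value and the other 2 far below it, with a log2 fold change of -0.61 (standard error 0.22, limma, adjusted p = 0.356). Npnt (ENSMUSG00000040998.18), the nephronectin gene, whose protein binds integrin alpha8 beta1, was at 367, 494 and 398 in WT-TRAMP and at 318, 149 and 248 in KO-TRAMP. Again library 16 was nearest to WT-TRAMP, and the log2 fold change was -0.87 (standard error 0.30, limma, adjusted p = 0.345). Among the Fraser complex genes, which hold epithelium to the tissue beneath it, Frem1 had the lowest fold change of all members at -1.96 (standard error 0.89), Frem2 was at -0.42 and Fras1 at 0.28. Their groups overlapped, and Frem1 in WT-TRAMP alone ranged from 46.1 in library 11 to 546 in library 10. Library 11 lay within the KO-TRAMP range of Frem1, 42.3 to 66.9. Libraries 10 and 12, at 546 and 303, were the WT-TRAMP libraries with more than 1% of reads from seminal vesicle genes. The part of seminal vesicle in Frem1 was not tested.

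No laminin chain passed the test. Lama3, Lamb3 and Lamb1 had log2 fold changes of 0.84, 0.93 and 0.92 (standard error 0.18, 0.23 and 0.35), Lama3 and Lamb3 without overlap and Lamb1 with it. Lama3 and Lamb3 are chains of laminin-332, the laminin to which basal cells attach through hemidesmosomes. Lama5, Lamb2 and Lamc1, the most abundant chains, were at -0.33, -0.57 and -0.22 with overlapping groups. Lamb2 was at 2218 in library 16 and at 931 and 1221 in libraries 17 and 18, against 1865 to 2236 in WT-TRAMP. Lama2, Lama4, Lama1 and Lamc3 had log2 fold changes of 0.41, 0.51, -1.41 and -0.68, all with overlap.

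Among the receptors, none of which passed, Itga6 and Itgb1 were above WT-TRAMP in every KO-TRAMP library, at 0.38 (standard error 0.11) and 0.32 (standard error 0.09), while Itga3 and Itgb4 were at -0.75 and -0.77 with overlapping groups. Dag1 was at -0.13. The anchoring collagens Col7a1, of anchoring fibrils, and Col17a1, of hemidesmosomes, were at -0.50 and 0.51, and Smoc2 at -0.14, all overlapping.

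Without library 16, 11 members passed the limma threshold, beside 18.1% of all genes in that fit. These were Col4a1, Col4a2, Nid1, Col15a1, Lama3, Lamb3 and Itgb1, which were higher, and Agrn, Lamb2, Itgb4 and Npnt, which were lower. That fit keeps KO-TRAMP libraries 17 and 18 only, whose neuroendocrine sums of 14558 and 9112 lay above the WT-TRAMP range of 3.84 to 1135. With all libraries DESeq2 called 8 members, beside 4.76% of all genes, and edgeR 0, beside 0.0888%. Those 8 were Col4a1, Col4a2, Nid1, Col15a1, Lama3, Lamb3 and Itgb1, higher, and Frem1, lower. Unadjusted, 14 members had p under 0.05 in limma, beside 13.5% of all genes.

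Fibroblast markers were high in the same libraries. The 7 genes summed to 5957, 7969 and 7062 in KO-TRAMP, against 2575, 2167 and 2330 in WT-TRAMP, and in 6 of the 7 the groups did not overlap. The 8 endothelial genes summed to between 671 and 1109 against 436 to 476, with 6 of 8 not overlapping. The sums of pericyte genes (583 to 2867 against 491 to 782), smooth muscle genes (7441 to 36486 against 14776 to 25068), basal genes (325 to 2335 against 373 to 399) and skeletal muscle genes (348 to 814 against 329 to 562) overlapped. Neuroendocrine sums overlapped too, at 4.12 in library 16 and at 14558 and 9112 in libraries 17 and 18, against 3.84 to 1135. By gene, 2 of the 4 skeletal muscle genes were higher without overlap, beside 10.8% of all genes, and 0 were lower without overlap. Their median log2 fold change was 3.14, with 3 of 4 above 0. By limma 1 skeletal muscle gene (adjusted p = 0.045) and 1 fibroblast gene (adjusted p = 0.0415) were called higher, beside 0.189% of all genes. The 4 adipocyte genes summed to 2.06 to 51.0 against 128 to 343. No gene of these lists was at 0 in all 6 libraries. The part of these cell types in the members' values was not tested.

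**Figure D2:**
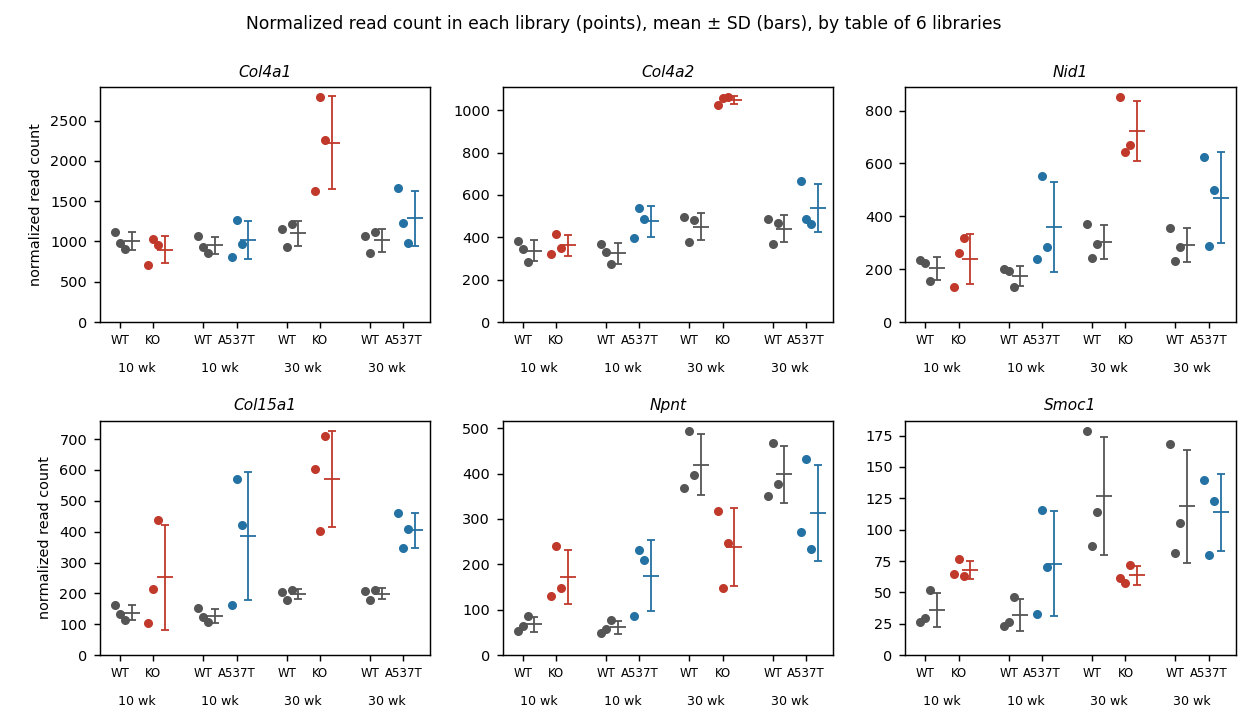
Normalized read count (y axis, from 0) of 6 members in each library (points) with mean ± SD of 3 libraries (bars), for each table's WT-TRAMP (grey) and KO-TRAMP (red) or A537T-TRAMP (blue) group. Col4a2 in KO-TRAMP at 30 weeks lies between 1026 and 1062, above WT-TRAMP of its table, and Npnt and Smoc1 in KO-TRAMP lie above WT-TRAMP at 10 weeks and below it at 30 weeks.

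At 10 weeks Npnt, Smoc1, Itga3 and Hspg2 were higher in every KO-TRAMP library, and the 6 collagen IV chains overlapped WT-TRAMP. By limma 0 of 35 members passed, beside 0.00647% of 15451 genes called higher and 0.00647% called lower. Unadjusted, 8 members had p under 0.05 (6.64% of all genes), edgeR called 0 (0% of all genes) and DESeq2 called 1, Npnt (0.537% of all genes). Groups did not overlap in 4 members on the higher side, 11.4% beside 5.77% of all genes, and in 0 on the lower side, beside 6.26%. The median log2 fold change of the members was 0.15, beside -0.01 over all genes.

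Npnt was at 54.2, 63.7 and 87.0 in WT-TRAMP libraries 1, 2 and 3 and at 130.4, 241 and 148 in KO-TRAMP libraries 7, 8 and 9. The lowest KO-TRAMP value exceeded the highest WT-TRAMP value, with a log2 fold change of 1.30 (standard error 0.28, limma, adjusted p = 0.624). Itga3, the alpha chain of a laminin receptor of epithelium, was at 454, 674 and 749 in WT-TRAMP and at 899, 1025 and 893 in KO-TRAMP. The KO-TRAMP libraries were close together, and the log2 fold change was 0.61 (standard error 0.18, limma, adjusted p = 0.716). Hspg2 was at 588, 566 and 542 in WT-TRAMP and at 671, 1021 and 741 in KO-TRAMP, which gives 0.50 (standard error 0.16, limma, adjusted p = 0.716). Library 8 was the highest of the 3.

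Col4a1 was at 1123, 985 and 906 in WT-TRAMP and at 705, 1025 and 959 in KO-TRAMP, and Col4a2 at 383, 344 and 285 and at 322, 417 and 348. Both pairs of groups overlapped, with log2 fold changes of -0.18 (standard error 0.16) and 0.11 (standard error 0.16). The other collagen IV chains lay between -0.06 (Col4a4) and 0.96 (Col4a6), Col4a3 being at 0.10 and Col4a5 at 0.53. Laminin chains lay between -0.16 (Lamb2) and 0.77 (Lama4), with Lama1 at -0.14, Lama2 at 0.59, Lama3 at -0.11, Lama5 at 0.21, Lamb1 at 0.37, Lamb3 at -0.11, Lamc1 at 0.42 and Lamc3 at 0.16. Of the remaining genes, Smoc2 was at 0.82, Col15a1 at 0.65, Frem2 at 0.58, Itgb1 at 0.21, Nid1 at 0.15, Col18a1 at 0.15, Col7a1 at 0.14, Dag1 at 0.02, Itga6 at -0.03, Itgb4 at -0.12, Agrn at -0.13, Col17a1 at -0.15, Fras1 at -0.18, Frem1 at -0.25 and Nid2 at -0.51. All of these groups overlapped.

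Smooth muscle genes summed to 8072, 12891 and 11643 in KO-TRAMP libraries 7, 8 and 9 and to 4595, 7584 and 6699.5 in WT-TRAMP at 10 weeks. Endothelial genes (188 to 408 against 161 to 240), pericyte genes (272 to 499 against 242 to 331), fibroblast genes (1860.2 to 2823 against 1751 to 2386) and basal genes (518 to 1229 against 519 to 999) overlapped. Of the 12 marker lists, smooth muscle and seminal vesicle did not overlap, and their part in the members' values was not tested.

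The effect of the knockout at 30 weeks minus that at 10 weeks was tested over 12 libraries. No member passed by limma, beside 0% of 16431 genes. Unadjusted, 11 members had p under 0.05 (13.1% of all genes), DESeq2 called 5 (2.37% of all genes) and edgeR 0 (0%). The 5 called by DESeq2 were Col4a1, Col4a2, Itga3, Npnt and Smoc1. By limma the differences were 1.12 for Col4a2 (standard error 0.21, adjusted p = 0.166), 1.17 for Col4a1 (standard error 0.29, adjusted p = 0.221), -1.36 for Itga3 (standard error 0.37, adjusted p = 0.255), -2.18 for Npnt (standard error 0.43, adjusted p = 0.186) and -1.88 for Smoc1 (standard error 0.43, adjusted p = 0.212). Leaving out library 16, limma called these 5 and Agrn, beside 11.8% of all genes in that fit.

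In A537T-TRAMP at 10 weeks most members lay above WT-TRAMP, with libraries 5 and 6 farthest from it. Lama4, Col15a1, Npnt, Smoc2, Lama2, Col4a5, Lamb1, Hspg2, Nid1, Col4a2 and Itgb1 were higher in every A537T-TRAMP library. Groups did not overlap in 11 members on the higher side, 31.4% beside 6.92% of 15438 genes, and in 0 on the lower side, beside 6.53%. By limma 0 members passed, beside 0% of genes called higher and 0.00648% called lower. Unadjusted, 12 members had p under 0.05 (7.89% of all genes), edgeR called 0 (0%) and DESeq2 4 (0.959%), namely Lama2, Lama4, Col15a1 and Col4a5. The median log2 fold change of the members was 0.63, beside -0.01 over all genes. Without libraries 5 and 6, whose reads were more than 1% seminal vesicle, only library 4 remained of A537T-TRAMP, and its median against WT-TRAMP was -0.069, beside 0.014 over all genes.

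Lama4, the laminin alpha chain of vessels and muscle, was at 77.9, 119.8 and 123 in WT-TRAMP and at 199, 292 and 408 in A537T-TRAMP libraries 4, 5 and 6. All 3 were above WT-TRAMP, with a log2 fold change of 1.45 (standard error 0.31, limma, adjusted p = 0.60). Col15a1 was at 153, 124 and 107 in WT-TRAMP and at 164, 571 and 422 in A537T-TRAMP. Library 4 was barely above WT-TRAMP while libraries 5 and 6 were far above it, and the fold change was 1.42 (standard error 0.44, limma, adjusted p = 0.60). Npnt was at 49.0, 57.6 and 77.8 in WT-TRAMP and at 85.5, 231 and 209.8 in A537T-TRAMP, with the same order of libraries, which gives 1.40 (standard error 0.40, limma, adjusted p = 0.60).

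Col4a1 was at 1065, 936 and 856 in WT-TRAMP and at 813, 1271 and 970.0 in A537T-TRAMP, and the groups overlapped (0.08, standard error 0.19). Col4a2 was at 367, 330.5 and 273 in WT-TRAMP and at 398, 539 and 486 in A537T-TRAMP, and the groups did not overlap (0.55, standard error 0.18, limma, adjusted p = 0.60). Of the other chains, Col4a5 was at 1.16 and Col4a6 at 1.63, while Col4a3 and Col4a4 were at 0.08 and 0.14. Further members without overlap were Smoc2 at 1.37, Lama2 (the laminin alpha chain of muscle) at 1.25, Lamb1 at 1.15, Hspg2 at 0.99, Nid1 at 0.95 and Itgb1 at 0.35. The others overlapped, with Frem2 at 1.05, Smoc1 at 1.05, Itga3 at 0.97, Frem1 at 0.90, Col18a1 at 0.85, Lama1 at 0.84, Lamc3 at 0.76, Col7a1 at 0.63, Lama5 at 0.60, Lamb3 at 0.50, Lamc1 at 0.48, Lama3 at 0.28, Lamb2 at 0.26, Col17a1 at 0.25, Nid2 at 0.08, Itgb4 at 0.07, Agrn at 0.04, Dag1 at -0.09, Itga6 at -0.19 and Fras1 at -0.21.

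The mean over the 35 members of log2(normalized count + 1) was 7.82 in library 4, 8.92 in library 5 and 8.48 in library 6, against 7.71 to 7.77 in WT-TRAMP. Smooth muscle genes summed to 10139, 27899 and 15508 in libraries 4, 5 and 6 and to 4090, 6765 and 5943 in WT-TRAMP, with no overlap in 7 of 7 genes. Endothelial genes (236 to 506 against 141 to 211, 3 of the 7 tested genes without overlap), pericyte genes (317 to 654 against 221 to 300.5, 2 of 5) and fibroblast genes (2341 to 2680 against 1573 to 2164, 2 of 7) were higher too, as sums. The 7 seminal vesicle genes took 0.0504%, 9.84% and 1.30% of the reads in libraries 4, 5 and 6, and at most 0.000481% in WT-TRAMP. The part of these markers in the members' values was not tested. Without library 4, limma called 4 members, Col15a1, Col4a5, Col4a6 and Lama2, all higher, beside 0.42% of genes in that fit.

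**Figure D3:**
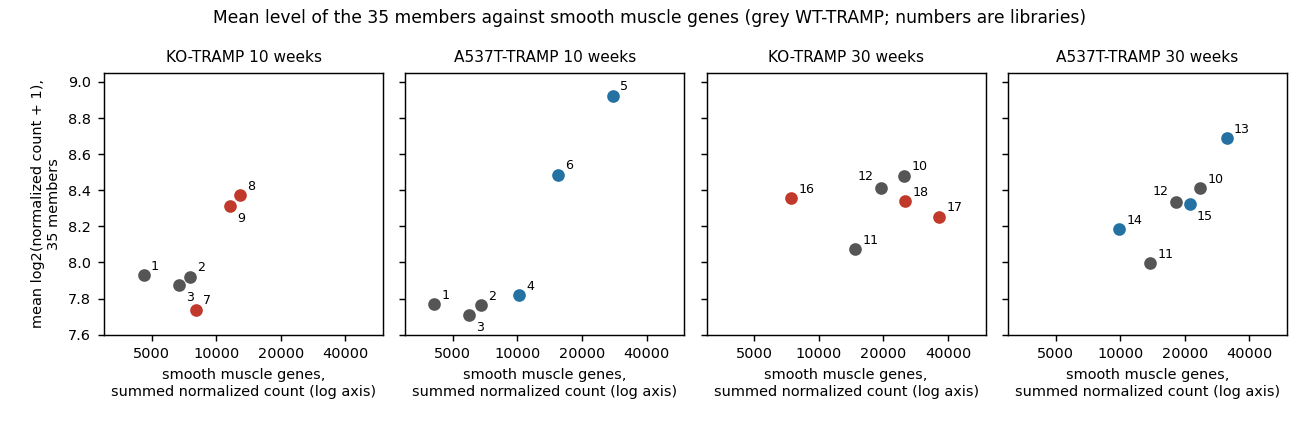
Mean log2(normalized count + 1) of the 35 members (y axis) against the summed normalized count of 7 smooth muscle genes (x axis, log scale) in each library, 1 panel per table, with WT-TRAMP in grey, KO-TRAMP in red and A537T-TRAMP in blue and points labelled by library number. Libraries 5 and 6 lie at 8.92 and 8.48, apart from library 4 at 7.82 and WT-TRAMP at 7.71 to 7.77.

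In A537T-TRAMP at 30 weeks Col15a1, Lamb3, Lama3 and Lamb2 were higher in every A537T-TRAMP library, 4 of 35 members or 11.4% beside 7.36% of 16261 genes, and 0 members were lower without overlap, beside 6.03%. By limma 0 members passed, beside 0% of genes in either direction. Unadjusted, 5 members had p under 0.05 (7.21% of all genes), edgeR called 0 (0%) and DESeq2 2 (1.02%), Col15a1 and Lamb2. The median log2 fold change of the members was 0.17, beside 0.00 over all genes.

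Col15a1 was at 208, 180.3 and 211 in WT-TRAMP and at 459.6, 346 and 408 in A537T-TRAMP libraries 13, 14 and 15. The A537T-TRAMP libraries were well above WT-TRAMP, with a log2 fold change of 1.01 (standard error 0.14, limma, adjusted p = 0.201). Lama3 was at 95.9, 78.0 and 93.9 in WT-TRAMP and at 133, 129 and 109 in A537T-TRAMP, which gives 0.46 (standard error 0.17, limma, adjusted p = 0.684). Lamb2, the beta chain with the highest level, was at 1759, 2091 and 1861 in WT-TRAMP and at 2533, 2778 and 2461 in A537T-TRAMP, which gives 0.45 (standard error 0.10, limma, adjusted p = 0.436). Lamb3 was at 0.59 (standard error 0.17, limma, adjusted p = 0.601).

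Collagen IV overlapped WT-TRAMP throughout. Col4a1 was at 1071, 853 and 1121 in WT-TRAMP and at 1659.9, 1226 and 983 in A537T-TRAMP (0.32, standard error 0.20), and Col4a2 at 487, 368 and 468 and at 667, 484 and 461 (0.28, standard error 0.18). Library 13 was the highest for both. The other chains lay between 0.07 (Col4a3) and 0.59 (Col4a6), with Col4a4 at 0.17 and Col4a5 at 0.38. The rest overlapped as well, with Nid2 at 0.97, Lamc3 at 0.65, Nid1 at 0.64, Col18a1 at 0.53, Lama2 at 0.52, Lamb1 at 0.32, Lama4 at 0.25, Hspg2 at 0.24, Itgb4 at 0.22, Itga6 at 0.16, Itgb1 at 0.16, Smoc2 at 0.07, Lamc1 at 0.07, Smoc1 at -0.03, Dag1 at -0.05, Itga3 at -0.06, Lama5 at -0.10, Agrn at -0.16, Col7a1 at -0.18, Fras1 at -0.25, Col17a1 at -0.26, Npnt at -0.39, Frem2 at -0.48, Frem1 at -0.80 and Lama1 at -1.03.

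Fibroblast genes summed to 6019, 2673 and 4337 in A537T-TRAMP at 30 weeks against 2418, 2030.3 and 2180.4 in WT-TRAMP, with 2 of 7 genes not overlapping. Endothelial (384 to 754 against 395 to 433) and smooth muscle sums (9932 to 31363 against 13808 to 23626) overlapped, and adipocyte genes summed to 3.58 to 38.5 against 117 to 306. Their part in the members' values was not tested. The 30 minus 10 weeks difference of the A537T-TRAMP effect passed in 0 of 35 members by limma, beside 0% of 15941 genes. Unadjusted, 4 had p under 0.05 (6.36% of all genes), edgeR called 0 (0%) and DESeq2 0 (0.307%). The smallest p belonged to Npnt, with a difference of -1.78 (standard error 0.50, limma, adjusted p = 0.721).

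The ratio of 2 chains within a library does not depend on the library's scaling, so 7 pairs of partner or alternative chains were followed in 4 comparisons, 28 in all. An exact two-sided permutation test of 3 libraries against 3 cannot go below 0.1, and the smallest Benjamini-Hochberg adjusted p over the 28 was 0.35, so none can pass. Col4a1 and Col4a2 held the narrowest range, with log2 ratios from 0.67 to 1.66 over the 24 values. At 10 weeks the ratio was 1.58 ± 0.08 in WT-TRAMP and 1.29 ± 0.17 in KO-TRAMP, and 1.56 ± 0.08 and 1.09 ± 0.13 in the A537T-TRAMP table (SD, n = 3). Every mutant library of both tables was below every WT-TRAMP library, which the tables share (exact p = 0.1 in each). At 30 weeks the ratio was 1.29 ± 0.06 in WT-TRAMP and 1.05 ± 0.37 in KO-TRAMP, and 1.202 ± 0.06 and 1.25 ± 0.14 in the A537T-TRAMP table, with overlap.

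Itga6 to Itgb4, the 2 chains of the hemidesmosome integrin, had a log2 ratio of 0.43 ± 0.22 in WT-TRAMP and 1.58 ± 0.71 in KO-TRAMP at 30 weeks, without overlap (exact p = 0.1). Library 17 was highest at 2.29. In the other 3 comparisons the group means lay between 0.06 and 0.41 and the groups overlapped. Lamb3 to Lamc1 was -4.44 ± 0.16 in WT-TRAMP and -3.30 ± 0.57 in KO-TRAMP at 30 weeks, and -4.55 ± 0.15 and -4.04 ± 0.18 in the A537T-TRAMP table, neither with overlap (exact p = 0.1 in each). Col4a5 to Col4a6 was 0.04 ± 0.67 in WT-TRAMP and 1.19 ± 0.51 in KO-TRAMP at 30 weeks (exact p = 0.1). These groups were only narrowly apart, with WT-TRAMP library 11 at 0.78 and the lowest KO-TRAMP library at 0.85. WT-TRAMP libraries 10 and 12 were at -0.14 and -0.52, and seminal vesicle genes took 4.54% and 1.99% of their reads. Col4a6 was at 366 and 302 in them and at 112 in library 11. The part of seminal vesicle in this ratio was not tested. In A537T-TRAMP at 10 weeks Lamb1 to Lamb2 was -2.94 ± 0.48 against -3.83 ± 0.29 and Lama5 to Lama4 2.98 ± 0.32 against 3.83 ± 0.18 (exact p = 0.1 in each). Nid1 to Nid2 overlapped in 4 of 4 comparisons.

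**Figure D4:**
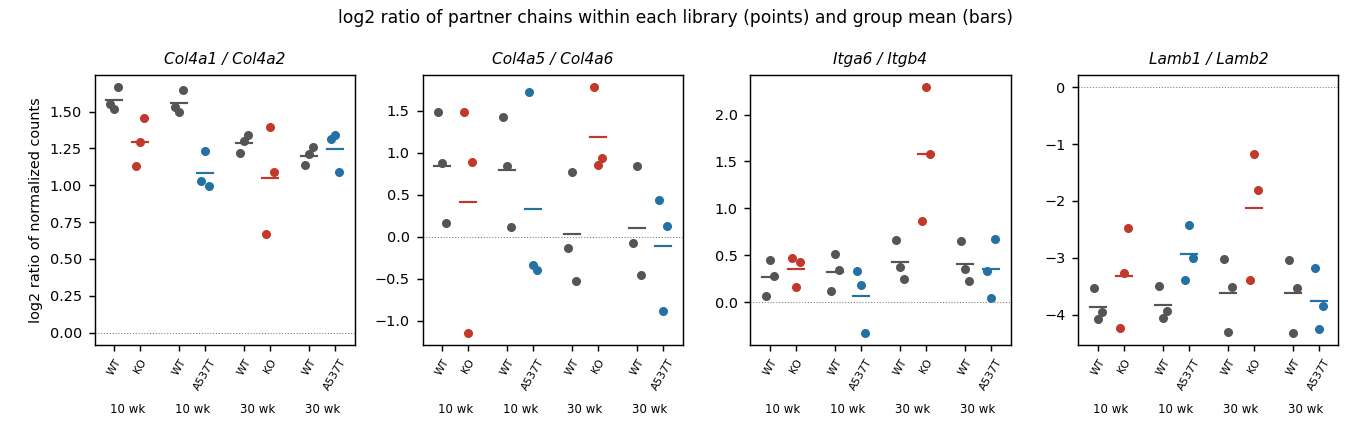
Log2 ratio of normalized counts of 2 chains within each library (y axis, points) and the group mean (bars) for 4 pairs, by table, with WT-TRAMP in grey, KO-TRAMP in red and A537T-TRAMP in blue. The Col4a1 to Col4a2 ratio of every mutant library at 10 weeks lies below WT-TRAMP, and the Itga6 to Itgb4 ratio in KO-TRAMP at 30 weeks, 1.58 ± 0.71, lies above it.

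Genes around the basement membrane were read from 4 further lists. Of 13 other basement membrane components, 12 were tested in KO-TRAMP at 30 weeks and 2 passed, both higher, beside 0.189% of all genes called higher. Sparc, which encodes a collagen-binding matrix protein, was at 803, 769 and 840.1 in WT-TRAMP and at 3441, 2582 and 2877 in KO-TRAMP (log2 fold change 1.87, standard error 0.13, limma, adjusted p = 0.0229). Fbln2, the fibulin-2 gene, was at 99.6, 104 and 106 in WT-TRAMP and at 546, 389 and 476 in KO-TRAMP (2.17, standard error 0.16, limma, adjusted p = 0.0281). Both sets of KO-TRAMP values were more than 3 times the highest WT-TRAMP value. The median over that list was 0.85, beside 0.01 over all genes.
Among 14 tested genes of collagen processing and cross-linking, 13 had a positive fold change in KO-TRAMP at 30 weeks, beside 50.9% of all genes, and 0 passed. The smallest p belonged to Loxl2, a lysyl oxidase that cross-links collagen IV (1.86, standard error 0.22, limma, adjusted p = 0.0501), and to Serpinh1, the collagen chaperone (1.36, standard error 0.18, limma, adjusted p = 0.0714). In 8 of the 14 the groups did not overlap, all higher, a share of 57.1% beside 10.8% of all genes. Of 22 other receptors and adhesion plaque genes 0 passed and the median was -0.02, and of 13 tested dystroglycan partners and glycosylation genes 0 passed and the median was -0.09. Dmd, the dystrophin gene, was lower without overlap at -0.84 (standard error 0.18, limma, adjusted p = 0.228).

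In the other 3 comparisons 0 genes of the 4 lists passed. At 10 weeks the collagen processing list had a median of 0.36 for KO-TRAMP and of 0.50 for A537T-TRAMP, and Serpinh1 in A537T-TRAMP was at 171, 207 and 113 in WT-TRAMP and at 322, 486 and 290.1 in A537T-TRAMP (1.16, standard error 0.29, limma, adjusted p = 0.60). At 30 weeks in A537T-TRAMP it was at 1.03 (standard error 0.16) and Lox, another lysyl oxidase, at 1.08 (standard error 0.18), both with a limma adjusted p of 0.235 and no overlap. The other basement membrane components had a median of 0.18 for KO-TRAMP at 10 weeks, and for A537T-TRAMP of 0.52 and later 0.38. For the receptor and adhesion list the medians were 0.02, 0.12 and 0.13, and for the dystroglycan list 0.19, 0.23 and -0.02, in the same order.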

How the data were processed

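The authors trimmed reads with Trim Galore 0.4.1 and cutadapt 1.18 and used STAR 2.7.3a, Salmon and DESeq2 1.26, per the processing notes in the labels. They deposited, for each line and age, a table of counts per gene divided by DESeq2 size factors, a signal value that is not a raw count. Each value was a whole multiple of 1 step per library (100% of values within 0.01 of a whole number). The whole numbers, called recovered reads here, were used for count-based alternatives. They differ between tables for the same library, so they are counts estimated per table and not sequenced reads. The deposited comparison tables, which hold the authors' fold changes and s-values, were not used.

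Each line was compared with WT-TRAMP of its age within its own table of 6 libraries, by limma 3.58.1 (R 4.3.3; empirical Bayes with a mean trend, two-sided) on log2(normalized count + 1). Fold changes are on that scale and understate the change of low genes. Genes with a mean of at least 10 were tested and p-values were Benjamini-Hochberg adjusted over all of them, with a threshold of 0.05. The age difference was fitted over 12 libraries with an intercept per table. The main test was therefore not the count model of the study. Alternatives were pseudocounts of 0.5 and 5, no filter, a minimum mean of 50, TMM scaling, no mean trend, edgeR 4.0.16, DESeq2 1.42.0 and each library left out. Leaving out libraries with more than 1% of reads from seminal vesicle genes was added after seeing the data. Scripts were tested on simulated data. Recovered reads summed to 9380174 to 14830104 per library, and the precision rests on 3 libraries per group. The WT-TRAMP libraries entered both tables of an age and their recovered reads were identical for 30.9% to 37.6% of genes.

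Values of every library are given for members past the threshold, for Col4a1 and Col4a2, and in each comparison for up to 3 members with the highest and 3 with the lowest fold change among those with a mean of at least 100 and no overlap between groups. From each related list, up to 3 genes past the threshold, or else the 2 with the smallest p, could be named. Library values of Smoc1, and of Lamb2 and Frem1 in KO-TRAMP at 30 weeks, were added after they were seen. The members and lists were chosen with earlier results of these data known.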

Additional observations from a re-analysis of the deposited data

Results flagged for a closer look

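Npnt and Smoc1 stood out because all KO-TRAMP libraries lay above WT-TRAMP at 10 weeks and all lay below it at 30 weeks. For Npnt the log2 fold change was 1.30 at 10 weeks and -0.87 at 30 weeks. The difference between the ages was tested and missed the threshold (-2.18, limma, adjusted p = 0.186). For Smoc1, which encodes a secreted calcium-binding protein of basement membranes, the values were 0.96 and -0.92, with a difference of -1.88 (limma, adjusted p = 0.212). Smoc1 was at 26.2, 30.0 and 51.8 in WT-TRAMP and at 64.7, 76.4 and 63.4 in KO-TRAMP at 10 weeks. At 30 weeks it was at 179, 87.3 and 114 in WT-TRAMP and at 61.7, 57.6 and 72.1 in KO-TRAMP. DESeq2 on the recovered reads passed both differences. The share of all genes that switch sides in this way was not counted. The mean of Npnt was 68.3 in WT-TRAMP and 173 in KO-TRAMP at 10 weeks, and 420 and 238 at 30 weeks, in tables normalized separately. In A537T-TRAMP, Npnt was at 1.40 without overlap at 10 weeks and at -0.39 with overlap at 30 weeks. Smoc1 there was at 1.05 and -0.03, both with overlap.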

How the results depend on the processing

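The paper describes the mice as matched by age and littermates. No paired analysis was possible because neither the sample titles nor the column headers say which mice of different lines were littermates. DESeq2 on recovered reads called 1 member in KO-TRAMP at 10 weeks, 4 in A537T-TRAMP at 10 weeks, 8 in KO-TRAMP at 30 weeks, 2 in A537T-TRAMP at 30 weeks and 5 for the KO-TRAMP age difference, where limma called 0, 0, 1, 0 and 0. For KO-TRAMP at 30 weeks, edgeR and limma without a mean trend each called 0. Leaving out the seminal-vesicle-rich libraries 10 and 12 also gave 0, but left 1 WT-TRAMP library, assumed to vary like the other group, with Col4a2 at 1.48 and 0 of 16733 genes called, so that this count says nothing about stability. With 1 library left out at a time, the members called ranged from 0 to 4 in A537T-TRAMP at 10 weeks (4 without library 4), from 0 to 11 in KO-TRAMP at 30 weeks (11 without library 16, 0 without any 1 of the other 5) and from 0 to 6 for the KO-TRAMP age difference (6 without library 16). The median over members in A537T-TRAMP at 10 weeks went from 0.63 to -0.069 without libraries 5 and 6, which left library 4 alone in that group and so describes that library. The same step could not be run for A537T-TRAMP at 30 weeks, which left 1 library against 1. Values near 0 changed sign. Col4a2 in KO-TRAMP at 10 weeks ranged from -0.01 to 0.20 with 1 library left out (-0.01025 without library 3 and -0.000488 without library 8). Col4a1 in A537T-TRAMP at 10 weeks ranged from -0.10 to 0.23 (-0.0953 without library 5) and was -0.22 without libraries 5 and 6. The cause was not tested. With 3 libraries a group, the exact test of chain ratios cannot pass the threshold, and its values say nothing about stability.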
